A study of Mus musculus with 8 samples.

Results

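Guanylate-binding proteins and 2 immunity-related GTPases were followed in mouse hematopoietic stem cells (HSCs) and in the wider LSK population, each cultured alone or with red blood cells (RBCs). The family was taken by name from the gene table as Gbp2, Gbp3, Gbp4, Gbp5, Gbp6, Gbp7, Gbp8, Gbp9, Irgm1 and Igtp, 10 of 24346 gene symbols, and all 10 were among the 12003 genes that passed the filter on low values. The group was selected on results of the RBC comparisons in these same libraries, in which some of its genes had already stood out, so the differences of the members with RBCs are given below as description. Where members past the threshold are counted in those comparisons, the count describes the choice and supports nothing. Comparisons between the cell types were tested, but they use the same libraries and are not wholly free of the choice. The paper lists Gbp4, Gbp6 and Gbp9 among genes higher with RBCs in both populations and similar in level between them. For these genes a lack of difference between the cell types may be partly fixed by the choice. A member that stood out through LSK cells with RBCs, such as Gbp8, may likewise differ from HSCs there.

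The cells were wild-type bone marrow cells from C57BL/6 mice of 8 to 20 weeks. HSCs (named LT-HSC in the labels) were sorted as Lin- Sca-1+ c-Kit+ CD48- CD150+, and LSK cells as Lin- Sca-1+ c-Kit+. Both were held for 1 day in serum-free medium with thrombopoietin and stem cell factor, as a single culture or as a co-culture with irradiated, leukocyte-depleted mouse RBCs. After lysis of the RBCs, CD45-positive cells were sorted again and sequenced from full-length cDNA, with 2 libraries in each of the 4 groups (HSCs alone, HSCs with RBCs, LSK cells alone, LSK cells with RBCs). Nothing says that the libraries of a group came from separate cultures or mice, so p-values measure only the spread between these libraries. Values are FPKM, fragments scaled to transcript length and to the mapped fragments of the library.

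Guanylate-binding proteins (GBPs) are large GTPases that interferon induces in most cell types. They assemble on the membranes of vacuoles that hold intracellular pathogens and on bacteria, and they open the way to inflammasome activation. Immunity-related GTPases (IRGs) are smaller relatives in function. The effector IRGs load onto such vacuoles and disrupt them, while the regulatory IRGs Irgm1 and Igtp (also known as Irgm3) sit on the cell's own membranes and hold the effectors inactive there. Irgm1 is also known for its role in HSCs, since mice without it lose HSC function under interferon signalling.

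The mouse Gbp genes lie in 2 clusters, and the members came from both (GENCODE M21, GRCm38). On chromosome 3, on the plus strand, lie Gbp5 (chr3:142493978-142522344), Gbp7 (chr3:142530342-142550149), Gbp3 (chr3:142560026-142573209) and Gbp2 (chr3:142620602-142638008). On chromosome 5, on the minus strand, lie Gbp8 (chr5:105014150-105139540), Gbp9 (chr5:105077630-105139539), Gbp4 (chr5:105115767-105139586) and Gbp6 (chr5:105270702-105293698). Irgm1 (chr11:48861968-48871683, minus strand) and Igtp (chr11:58199556-58207591, plus strand) lie apart on chromosome 11. The annotated spans of Gbp4, Gbp8 and Gbp9 overlap, and their 5′ ends fall within the same first exon, of which Gbp4 and Gbp8 share 61 exonic bases and Gbp9 shares 60 bases with each. Igtp shares 162 exonic bases with Irgm2.

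The coding sequence of the first nucleotide-binding motif (G1, the loop that holds the phosphates of GTP) shows how the members group. It is given as 24 bases from each coding sequence, with the codon before the last in capitals.

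Gbp2: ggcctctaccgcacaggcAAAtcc
Gbp3: ggtttatatcgtacagggAAGtcc
Gbp5: ggtctttatcgcacaggcAAAtcc
Gbp7: ggactataccgtacgggaAAAtcc
Gbp4: ggatggtcccatacagggAAGtcc
Gbp6: ggattgtaccgtacagggAAGtcc
Gbp8: ggattgtaccgtacagggAAGtcc
Gbp9: ggattgtaccgtacagggAAGtcc
Irgm1: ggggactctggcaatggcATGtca
Igtp: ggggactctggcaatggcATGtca

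Gbp6, Gbp8 and Gbp9 had the same 24 bases, and Gbp4 of the same cluster differed from them. In all 8 GBPs the marked codon was a lysine codon (AAA in 3, AAG in 5), the usual residue of this loop, and in Irgm1 and Igtp it was ATG for methionine, the mark of the regulatory IRGs. The stretch was located by a pattern that allowed only lysine or methionine at this place. Over the whole coding sequence, identity was highest within the chromosome 5 cluster, at 89.6% between Gbp6 and Gbp9, 87.2% between Gbp4 and Gbp6 and 87.1% between Gbp4 and Gbp9. Gbp8 stood at 76.6% to 78.4% with these. Gaps counted as differences, and its coding sequence was shorter, at 1575 bases against 1893, 1833 and 1857 for Gbp4, Gbp6 and Gbp9. Its lower value thus depends in part on its length. The chromosome 3 members shared 54.9% to 76.3%, and Irgm1 and Igtp 64.6%. Likeness did not simply follow the clusters. Gbp3 and Gbp7 shared 69.3% to 71.3% with Gbp4, Gbp6 and Gbp9, but 54.9% to 59.0% with Gbp2 and Gbp5 of their own cluster.

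Such likeness bears on how reads can be assigned. Of the runs of 50 bases in the member's transcript, 70.3% were also found in another gene of the table for Gbp6, mostly in Gbp10, against 21.2% for Gbp8, 12.8% for Gbp4, 12.3% for Igtp, 9.56% for Gbp9 and at most 4.79% for the other 5 members. The FPKM of Gbp6 and of its non-member relative Gbp10 are therefore uncertain with respect to each other. The overlapping genes Gbp4, Gbp8 and Gbp9 are uncertain in the same way to a smaller degree, for their shared first exon and for other shared runs. The closest gene to Gbp4 and to Gbp8 was the non-member Gbp11, with 5.44% and 10.5% of their runs. Gbp9 was closest to Gbp8, with 5.26%. Libraries held an estimated 10700000 to 13700000 fragments, FPKM summed to between 680942 and 752107, and between 14829 and 16551 genes were above 0. At this depth Gbp5 rested on an estimated 25.8 to 84.9 fragments per library, with a counting error of 19.7% at the low end, and each other member on at least 105, where the error was 9.77%. These errors cover counting only, and they rest on annotated transcript lengths.

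With RBCs, the chromosome 5 GBPs Gbp4, Gbp6 and Gbp9 were several-fold higher in both populations, and Gbp8 was higher in LSK cells. The chromosome 3 GBPs and both IRGs stayed within 0.28 of their level without RBCs on the log2(FPKM + 1) scale. Of the 10 members, 3 passed the threshold as higher in HSCs and 4 in LSK cells, and none as lower (limma, Benjamini-Hochberg adjusted p under 0.05 over all genes tested and at least 2-fold). Over all genes tested, 0.633% were higher and 0.142% lower in HSCs, and 0.9% were higher and 0.108% lower in LSK cells. These counts restate the choice of the members. In HSCs the median difference of the members was 0.10 (all genes tested: -0.00617), and in LSK cells 0.26 (all genes tested: -0.00953).

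Gbp4 stood at 5.81 and 5.75 FPKM in the libraries of HSCs alone and at 25.2 and 25.6 with RBCs. In LSK cells it was 5.26 and 9.57 alone and 33.6 and 31.0 with RBCs. Every library with RBCs lay above every library without them, and the mean was 4.39 times higher in HSCs and 4.36 times higher in LSK cells. The difference in log2(FPKM + 1) was 1.96 ± 0.20 (SE, n = 2 against 2) in HSCs and 2.03 ± 0.20 in LSK cells.

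Gbp6 followed the same course, with a Pearson r of 0.997 to Gbp4 over the 8 libraries, which are 4 groups of 2 and not independent points. It was 8.68 and 7.09 FPKM in HSCs alone and 29.6 and 31.0 with RBCs, and 7.54 and 12.1 in LSK cells alone and 38.6 and 38.8 with RBCs. Again the ranges did not overlap in either population. The log2 difference was 1.82 ± 0.18 in HSCs and 1.91 ± 0.18 in LSK cells. For both genes the 2 libraries of LSK cells alone were the least alike of any group, with the second above both libraries of HSCs alone.

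Gbp9 had the smaller difference of the 3 genes that were higher in both populations. It was 5.21 and 5.44 FPKM in HSCs alone against 13.0 and 15.6 with RBCs, and 4.29 and 5.43 in LSK cells alone against 16.2 and 15.5 with RBCs. The mean was 2.68 times higher in HSCs and 3.26 times higher in LSK cells, or 1.27 ± 0.14 and 1.53 ± 0.14 on the log2 scale. Its correlation with Gbp4 was 0.981 and with Gbp6 0.979.

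Gbp8 parted from its cluster in HSCs. There it was 6.23 and 6.38 FPKM alone and 6.77 and 6.97 with RBCs, ranges that did not overlap but lay 0.11 ± 0.22 apart on the log2 scale. In LSK cells it was 3.52 and 6.72 FPKM alone and 16.1 and 13.1 with RBCs, a mean 2.86 times higher (1.40 ± 0.22). Its count as called in LSK cells depended on both libraries with RBCs, since leaving out either 1 left 3 members called, and 3 were called also with every gene above 0 in any library tested.

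**Figure D1:**
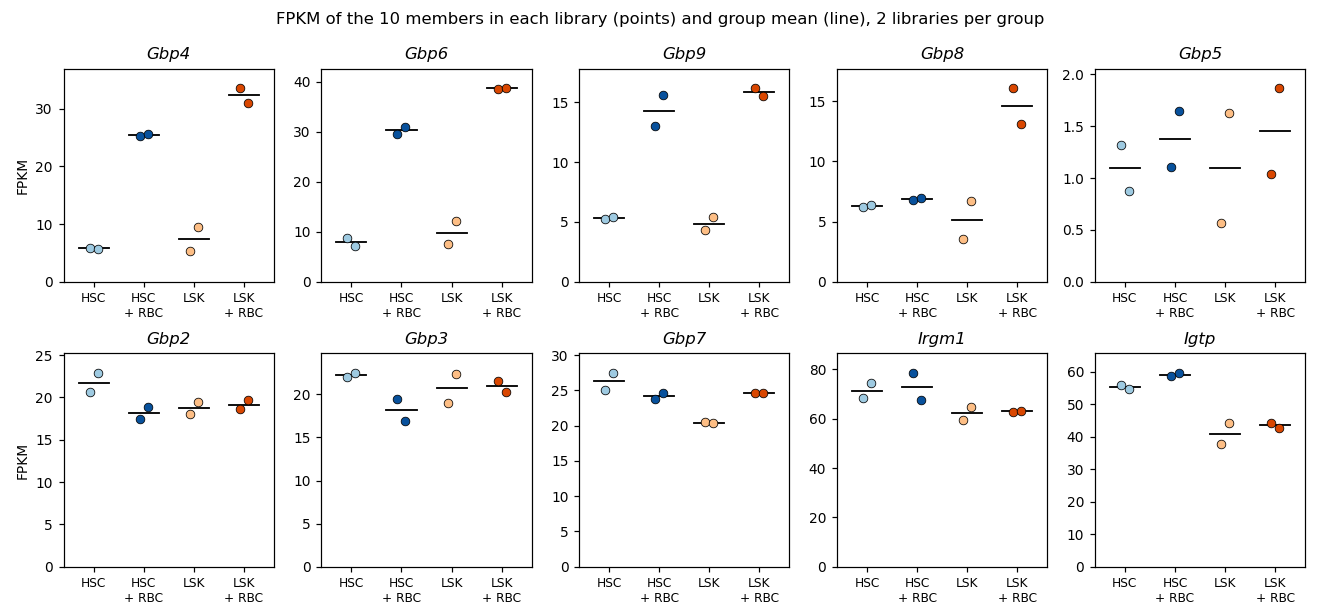
FPKM of each member in every library (points) with the group mean (line), for HSCs and LSK cells without and with RBCs, 2 libraries per group and each axis from 0. Gbp4, Gbp6 and Gbp9 sit higher in all 4 libraries with RBCs, Gbp8 in the 2 LSK libraries with RBCs at 13.1 and 16.1, and Igtp is higher in all HSC libraries than in all LSK libraries.

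The chromosome 3 GBPs were near their starting level. Gbp2, a GBP that coats bacteria and vacuoles in macrophages, was 20.6 and 22.9 FPKM in HSCs alone and 17.4 and 18.9 with RBCs, and 18 to 19.7 in all 4 LSK libraries. The log2 difference with RBCs was -0.25 ± 0.10 in HSCs and 0.03 ± 0.10 in LSK cells. In HSCs its 2 ranges did not overlap, with the libraries with RBCs below.

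Gbp3 was 22.0 and 22.5 FPKM in HSCs alone and 19.5 and 16.9 with RBCs (-0.28 ± 0.11 on the log2 scale). In LSK cells it was 19.0 and 22.4 alone and 21.6 and 20.3 with RBCs (0.02 ± 0.11). As with Gbp2, the libraries with RBCs were the lower ones in HSCs and overlapped the others in LSK cells.

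Gbp7, like the other chromosome 3 members, was past the threshold in neither population. In HSCs it was 25.1 and 27.5 FPKM alone and 23.8 and 24.6 with RBCs (-0.12 ± 0.09), and in LSK cells 20.5 and 20.4 alone and 24.6 and 24.7 with RBCs (0.26 ± 0.09). In both populations the ranges were apart, with the libraries with RBCs below in HSCs and above in LSK cells.

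Gbp5, a GBP tied to inflammasome assembly in macrophages, was the lowest member in all 4 groups, at 0.568 to 1.87 FPKM, and its ranges overlapped in both populations. The log2 difference was 0.18 ± 0.28 in HSCs and 0.25 ± 0.28 in LSK cells.

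Summed over the 4 chromosome 3 members, FPKM was 69.0 and 73.8 in HSCs alone, 61.7 and 62.1 with RBCs, 58.1 and 63.8 in LSK cells alone and 65.9 and 66.6 with RBCs. Summed over the 4 chromosome 5 members, it was 25.9 and 24.7 in HSCs alone and 74.6 and 79.2 with RBCs, and 20.6 and 33.8 in LSK cells alone and 104 and 98.4 with RBCs. The chromosome 3 sum thus lay above the chromosome 5 sum in every library without RBCs and below it in every library with them. Because FPKM is divided by transcript length, and Gbp10 and Gbp11 are not in the sums, these still depend in part on how reads were divided among alike genes. The change of the chromosome 5 sum was 1.57 ± 0.18 (log2, SE) in HSCs and 1.90 ± 0.18 in LSK cells.

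The IRG members were the most abundant and hardly moved. Irgm1 was 68.3 and 74.3 FPKM in HSCs alone and 78.6 and 67.4 with RBCs, and 59.6 and 64.8 in LSK cells alone and 62.9 and 63.3 with RBCs. Its ranges overlapped in both populations, with log2 differences of 0.03 ± 0.09 in HSCs and 0.02 ± 0.09 in LSK cells. Igtp was 56.1 and 54.7 FPKM in HSCs alone and 58.6 and 59.7 with RBCs, and 37.7 and 44.3 in LSK cells alone and 44.3 and 42.7 with RBCs. Its HSC ranges were apart by a small step (0.09 ± 0.09) and its LSK ranges overlapped (0.09 ± 0.09).

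Counted over the members, the 2 libraries with RBCs lay above the 2 without in 5 of 10 in HSCs (Gbp4, Gbp6, Gbp8, Gbp9 and Igtp) and below in 3 (Gbp2, Gbp3 and Gbp7). The shares over all genes tested were 19.9% and 21.8%. In LSK cells they lay above in 5 (Gbp4, Gbp6, Gbp7, Gbp8 and Gbp9) and below in 0, where the shares over all genes were 24.2% and 26.4%.

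**Figure D2:**
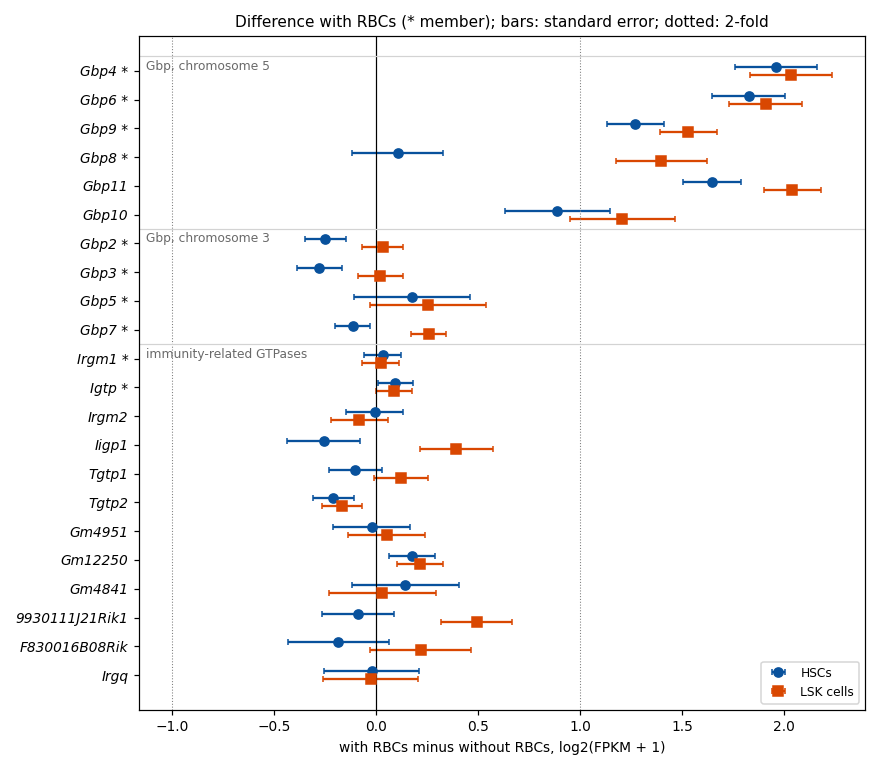
Difference with RBCs in log2(FPKM + 1), with its standard error, in HSCs (circles) and LSK cells (squares), for the members (marked *) and the other GBPs and IRGs that passed the filter, 2 libraries against 2. The chromosome 5 GBPs lie from 0.89 to 2.04, apart from Gbp8 in HSCs at 0.11, and the chromosome 3 GBPs and the IRGs lie from -0.28 to 0.49.

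The order of levels within a group shows the same shift. In HSCs alone the order by mean FPKM was Irgm1 (71.3 ± 4.24, SD, n = 2), Igtp (55.4 ± 0.982), Gbp7 (26.3 ± 1.68), Gbp3 (22.2 ± 0.324), Gbp2 (21.8 ± 1.64), Gbp6 (7.88 ± 1.1), Gbp8 (6.31 ± 0.111), Gbp4 (5.78 ± 0.0394), Gbp9 (5.33 ± 0.163) and Gbp5 (1.1 ± 0.313), and of the neighbours in this order Gbp3 and Gbp2 had overlapping ranges. With RBCs, Gbp6 (30.3 ± 0.987) and Gbp4 (25.4 ± 0.292) stood directly below Igtp in HSCs, ahead of Gbp7 (24.2 ± 0.597). LSK cells alone began Irgm1 (62.2 ± 3.69), Igtp (41.0 ± 4.68), Gbp3 (20.7 ± 2.44), Gbp7 (20.4 ± 0.0791), and the neighbours Gbp3 and Gbp7, Gbp6 and Gbp4, Gbp4 and Gbp8, and Gbp8 and Gbp9 overlapped. In LSK cells with RBCs, Gbp6 (38.7 ± 0.144) came close below Igtp (43.5 ± 1.13), and Gbp4 (32.3 ± 1.84) followed it.

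Whether the RBC difference itself differed between HSCs and LSK cells was asked with the interaction term, which is built from the same differences that the members were chosen by. It is therefore given as description. No member was past the threshold (limma, adjusted p over all genes), and 2 members, Gbp7 and Gbp8, had an unadjusted p under 0.05, as had 12.5% of all genes tested. Over all genes, 0.075% passed as higher and 0.0333% as lower in LSK cells. For Gbp8 the LSK difference exceeded the HSC difference by 1.29 ± 0.32 (log2, SE), and without the second library of LSK cells alone, in which Gbp8 was 6.72 FPKM, it was past the threshold. For Gbp4, Gbp6 and Gbp9 the excess was 0.07, 0.08 and 0.26, with standard errors of 0.29, 0.25 and 0.20.

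Other GBPs in the table were Gbp2b of the chromosome 3 cluster and Gbp10 and Gbp11 of the chromosome 5 cluster. Gbp11, annotated as a polymorphic pseudogene, was 2.79 and 2.61 FPKM in HSCs alone and 10.1 and 11 with RBCs, and 4.84 and 6.05 in LSK cells alone and 23.5 and 27.4 with RBCs. It was higher with RBCs by 1.65 ± 0.14 in HSCs and 2.04 ± 0.14 in LSK cells (limma, adjusted p = 0.00048 and 0.00021). Of the runs of 50 bases in Gbp11, 19.2% were also found in another gene, so its values are in part uncertain with respect to its relatives. Gbp10 was 0.306 and 0.422 FPKM in HSCs alone and 1.95 and 1.15 with RBCs, and 0.138 and 0.782 in LSK cells alone and 1.99 and 2.61 with RBCs. It passed the filter on low values only through the libraries with RBCs, so its differences (0.89 ± 0.26 in HSCs and 1.21 ± 0.26 in LSK cells) are given without a test. Gbp2b was at 0.146 FPKM or less in every library and was not tested.

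Because the genes of the chromosome 5 cluster were higher together, the genes on either side were read as well, a choice made after their values were seen. Abcg3, next to Gbp8, was 14.5 and 11.1 FPKM in HSCs alone and 24.5 and 25.8 with RBCs (0.93, adjusted p = 0.06 by limma), and 6.03 and 10.2 in LSK cells alone and 21 and 16.6 with RBCs (1.15, adjusted p = 0.022). It thus passed the threshold in LSK cells. Lrrc8c on the far side was higher by 0.49 and 0.42 (adjusted p = 0.014 and 0.026), under 2-fold in both populations. The difference of Lrrc8b, which lies between Gbp11 and Lrrc8c, was 0.23 in HSCs and -0.12 in LSK cells. That of Zfp951, beyond Abcg3, was 0.38 in HSCs and 0.16 in LSK cells (adjusted p = 0.18 and 0.54 by limma). Next to the chromosome 3 cluster, Pdlim5, Gtf2b and Pkn2 had differences from -0.13 to 0.15.

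**Figure D3:**
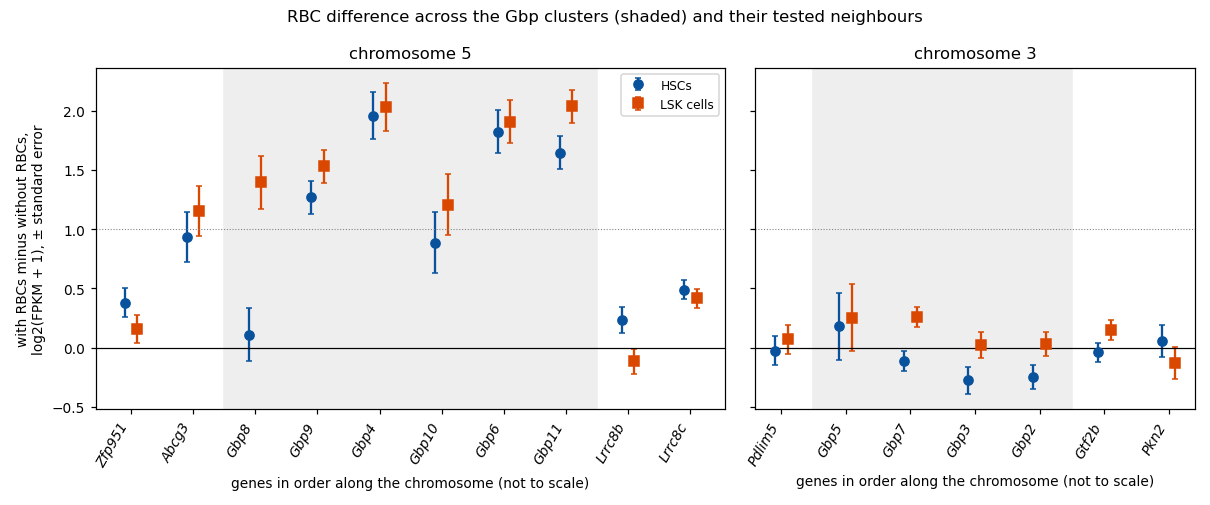
Difference with RBCs in log2(FPKM + 1), with its standard error, for the tested genes of the chromosome 5 and chromosome 3 Gbp clusters (shaded) and tested genes within 300000 bases, in order of gene midpoints and not to scale, in HSCs (circles) and LSK cells (squares), 2 libraries against 2. The chromosome 5 genes from Abcg3 to Gbp11 lie from 0.89 to 2.04, apart from Gbp8 in HSCs at 0.11. Outside them, Lrrc8c lies at 0.49 in HSCs and 0.42 in LSK cells, and Zfp951 at 0.38 and 0.16. No gene shown on chromosome 3 is beyond 0.28 in either direction.

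Among the other IRGs, 14 were in the table and 10 were tested. None passed with RBCs in either population (limma), and the number with an unadjusted p under 0.05 was 0 for HSCs and 1 for LSK cells, where the shares of all genes were 13.7% and 18.6%. Their median log2 difference was -0.05 in HSCs and 0.09 in LSK cells. Irgm2, the remaining regulatory IRG, was 18.3 and 18.1 FPKM in HSCs alone and 19.6 and 16.7 with RBCs, and 13.2 and 15.1 in LSK cells alone and 15.1 and 11.6 with RBCs. The effector IRGs Tgtp2 (14.2 to 27.4 FPKM), Tgtp1 (8.03 to 16) and Iigp1 (3.74 to 14.5) and the genes Gm12250 (12 to 19.9), Gm4951 (2.0 to 7.80), Gm4841 (1.42 to 2.96), 9930111J21Rik1 (1.74 to 3.91), F830016B08Rik (0.222 to 1.98) and Irgq (1.69 to 3.36) were detected in all 8 libraries. Tgtp1 and Tgtp2 share 89.4% of the 50-base runs of Tgtp1, and their values are uncertain with respect to each other. Gm5431, Gm12185, 9930111J21Rik2 and Irgc1 stayed under 1 FPKM. Of the other large interferon-induced GTPases, Gm1966 was tested (4.63 to 9.19 FPKM) and did not pass, and Mx1, Mx2, Gvin1, Gm4070 and Gm17757 reached at most 1.22 FPKM.

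Between the cell types, Igtp and several other IRGs were lower in LSK cells than in HSCs. Without RBCs, no member passed the threshold (limma), where 1.62% of all genes tested were higher and 1.03% lower in LSK cells. Without the fold limit, 2 of 10 had an adjusted p under 0.05, against 14.2% of all genes, and the same 2 an unadjusted p under 0.05, against 28.7%. Igtp was lower in LSK cells by -0.43 ± 0.09 on the log2 scale (adjusted p = 0.011 by limma), with each of the 2 LSK libraries (37.7 and 44.3 FPKM) below both HSC libraries (56.1 and 54.7). Gbp7 was lower by -0.35 ± 0.09 (adjusted p = 0.028 by limma), at 20.5 and 20.4 FPKM against 25.1 and 27.5. Irgm1 was lower in both LSK libraries as well, by -0.19 ± 0.09 (adjusted p = 0.19, 95% interval -0.40 to 0.01). The other 7 members differed by -0.31 to 0.26.

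With RBCs, again no member passed (limma), where 2.61% of all genes were higher and 1% lower in LSK cells. Without the fold limit, 2 of 10 had an adjusted p under 0.05, against 24.4% of all genes, and 3 an unadjusted p under 0.05, against 37.6%. These shares are near or below those over all genes. The libraries with RBCs also entered the differences that the members were chosen by, so these counts are not free of that choice. Igtp was lower by the same -0.43 ± 0.09 (adjusted p = 0.007), at 44.3 and 42.7 FPKM in LSK cells against 58.6 and 59.7 in HSCs. Gbp8 was higher in LSK cells by 0.98 ± 0.22 (adjusted p = 0.013 by limma), at 16.1 and 13.1 FPKM against 6.77 and 6.97, a mean 2.13 times higher whose log2 difference lay just under the threshold. It passed with a pseudocount of 0.1 and without the second LSK library with RBCs. Gbp4 and Gbp6 were higher in both LSK libraries, by 0.33 and 0.34 (95% intervals -0.12 to 0.79 and -0.07 to 0.75), and Gbp7 differed by 0.03 (-0.17 to 0.22).

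Of the 10 tested IRGs outside the members, 2 were called lower in LSK cells without RBCs and 1 with RBCs, and 7 and 8 had an unadjusted p under 0.05, against 28.7% and 37.6% of all genes. Among these 8, 9930111J21Rik1 was higher in LSK cells with RBCs, by 0.62 (adjusted p = 0.03 by limma), at 3.14 and 3.91 against 1.74 and 2.12 FPKM. Iigp1, an effector IRG, was 5.42 and 3.74 FPKM in LSK cells alone against 11.5 and 14.5 in HSCs alone (-1.34 ± 0.18, adjusted p = 0.0015 by limma). With RBCs it was 6.61 and 5.90 FPKM against 11.5 and 9.83 (-0.69 ± 0.18, adjusted p = 0.022), under 2-fold. Gm4951 was lower in LSK cells by -1.22 ± 0.19 alone and -1.15 ± 0.19 with RBCs (adjusted p = 0.0034 and 0.0028 by limma), and without the first library of LSK cells alone the former became -0.94, under 2-fold. Tgtp1 and Tgtp2 were lower by -0.80 and -0.65 alone (adjusted p = 0.0047 and 0.0033 by limma), also under 2-fold. F830016B08Rik, which passed the filter on low values only through the HSC libraries, was 0.222 and 0.398 FPKM in LSK cells alone against 1.27 and 1.98, and is given without a test, though it is 1 of the 10 counted. The median of the 10 was -0.50 in each condition, against 0.00846 without and 0.00753 with RBCs over all genes. Gbp11 was also higher in LSK cells, by 0.80 ± 0.14 alone and 1.19 ± 0.14 with RBCs (adjusted p = 0.0063 and 0.00056 by limma), and was called in the latter.

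**Figure D4:**
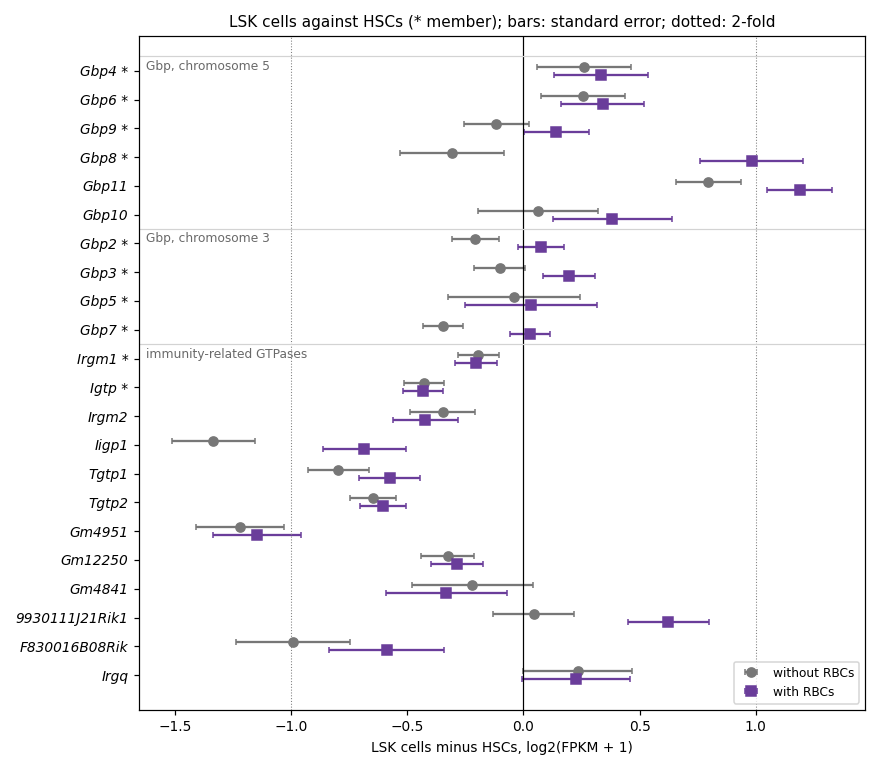
LSK cells minus HSCs in log2(FPKM + 1), with its standard error, without RBCs (circles) and with RBCs (squares), for the members (marked *) and the other tested GBPs and IRGs, 2 libraries against 2. Igtp lies at -0.43 in both conditions, Iigp1 and Gm4951 lie near or past -1 without RBCs, and Gbp8 moves from -0.31 without RBCs to 0.98 with them.

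Across the 8 libraries the members did not share 1 profile. Gbp8 correlated with Gbp4, Gbp6 and Gbp9 at 0.75 to 0.77, Irgm1 with Igtp at 0.83, and Gbp2 with Gbp4 at -0.48. These are descriptions over libraries that share their groups. When the members' standardised log2 values were averaged, the first library of LSK cells alone lay lowest (-1.25) and the 2 of LSK cells with RBCs highest (0.36 and 0.46). Among 8885 other genes with a mean of at least 5 FPKM, the 10 most like this average were Tnfsf10 (r = 0.932), Pygm (0.930), Trim30a (0.927), Psmb9 (0.922), Gimap6 (0.918), Wdr37 (0.916), Slmo2 (0.912), Ndfip2 (0.911), Fpgt (0.905) and Naaa (0.903). Trim30a and the immunoproteasome subunit Psmb9 are known interferon-induced genes. None of the 10 was called with RBCs, and Tnfsf10, the ligand TRAIL, differed by 0.10 in HSCs and 0.42 in LSK cells.

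Gbp and IRG genes are classical targets of interferon, so the rest of that pathway was read from lists. Over all genes tested, 13.7% in HSCs and 18.6% in LSK cells had an unadjusted p under 0.05 with RBCs, the shares to set beside the counts below. Of 21 interferon genes, 15 were at 0 in all libraries and none reached 1 FPKM in 2 libraries, with Ifnab at most 0.50 and Ifna14 at most 0.855 FPKM. Of 8 tested receptor and Janus kinase genes, none was called with RBCs, and 1 in HSCs and 3 in LSK cells had an unadjusted p under 0.05. Their median difference was -0.02 in HSCs, with 4 of 8 positive, and 0.26 in LSK cells, with all 8 positive. Il10rb, a shared chain of the interleukin-10 and interferon-lambda receptors, was called higher in LSK cells with RBCs than in HSCs with RBCs, at 78.2 and 71.0 against 33.0 and 33.7 FPKM. Without RBCs it was higher in LSK cells by 0.83, under 2-fold (adjusted p = 0.00017 by limma), at 61.9 and 62.4 against 34.7 and 34.6 FPKM.

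Of 12 tested transcription factors of the pathway, none was called with RBCs (3 in HSCs and 2 in LSK cells at an unadjusted p under 0.05). Irf7 was 8.28 and 7.81 FPKM in HSCs alone and 14.3 and 11.6 with RBCs (0.62, adjusted p = 0.073 by limma), and 3.18 to 3.74 in LSK cells, where it was called lower than in HSCs in both conditions. Irf8, a factor of monocyte and dendritic cell progenitors, was called higher in LSK cells in both conditions, at 38.5 to 59.3 FPKM against 5.28 to 6.19. Among the 8 feedback inhibitors, Socs3 was called higher with RBCs in LSK cells, at 24.1 and 28.9 against 7.93 and 9.90 FPKM, and was 12.4 and 12.3 against 6.83 and 6.76 FPKM in HSCs (0.77, adjusted p = 0.018 by limma, under 2-fold).

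Of 23 tested interferon-gamma responsive genes, none was called with RBCs, with 4 in HSCs and 6 in LSK cells at an unadjusted p under 0.05 and median differences of 0.01 and 0.04. Ly6a, which encodes the sorting marker Sca-1, was called lower in LSK cells with RBCs (204 and 170 FPKM) than in HSCs with RBCs (719 and 544). Of 29 tested type I interferon responsive genes, 1 was called with RBCs in HSCs and none in LSK cells, where 6 had an unadjusted p under 0.05, and the medians were 0.03 and 0.16. That gene was Ifi27l2a, at 2.30 and 2.97 FPKM in HSCs alone and 7.92 and 5.65 with RBCs. Slfn2 and Oas3 were called lower in LSK cells than in HSCs without RBCs, and Rtp4 with RBCs. In the other condition Slfn2 (-0.97, adjusted p = 5.5e-05 by limma) and Rtp4 (-0.86, adjusted p = 0.00053) were lower as well, under 2-fold. Oas3 differed by -0.43 with RBCs (adjusted p = 0.23 by limma). Oas2 passed the filter on low values only through the HSC libraries. With RBCs it was 0.423 and 0.665 FPKM in LSK cells against 2.25 and 2.57 in HSCs, given without a test.

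No gene of the lists of proteins that act with the GTPases was called with RBCs. None of 16 genes for ubiquitin-like conjugation and autophagy, 7 for inflammasomes and cell death or 5 prenylation enzymes was called in HSCs or LSK cells, and 4, 4 and 0 in HSCs and 3, 2 and 1 in LSK cells had an unadjusted p under 0.05. In HSCs, Lgals3 was 6.73 and 3.11 FPKM alone and 0.913 and 1.61 with RBCs (-1.33, adjusted p = 0.057 by limma), and Il1b 0.789 and 0.888 alone and 2.46 and 2.29 with RBCs (0.88, adjusted p = 0.096). Fnta, a subunit of the enzymes that attach lipid anchors to proteins, was at 87.0 to 99.2 FPKM and the CAAX protease gene Rce1 at 44.4 to 50.4 FPKM in all 8 libraries. Lgals3 was called higher in LSK cells than in HSCs with RBCs (4.95 and 3.54 against 0.913 and 1.61 FPKM), and Il1b without RBCs (4.30 and 4.54 against 0.789 and 0.888 FPKM).

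Promoters of 6 members were found in RefSeq (GRCm38.p6), from 250 bases before to 50 after the start, and Gbp4, Gbp6, Gbp8 and Gbp9 had none in the table. They were searched on both strands for the interferon-stimulated response element (ISRE, here GAAA, any pair of bases, GAAA) and the gamma-activated site (GAS, here TTCNNNGAA). The 6 genes had 7 promoters, 2 of them for Gbp3. An ISRE match was present in 6 of the 7 promoters, at least 1 for each of Gbp2, Gbp3, Gbp5, Gbp7, Irgm1 and Igtp and none in the second of Gbp3, against 3.44% of 32851 promoters, and a GAS match in 3 of the 7 (Gbp5, Gbp7 and Igtp), against 8.30%. An ISRE match of each of the 6 genes is shown, read on the gene's strand. The members that were higher with RBCs had no promoter to compare, and a link between matches and RNA levels was not tested.

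Gbp2: TTTCACTTTC
Gbp3: TTTCAGTTTC
Gbp5: TTTCAATTTC
Gbp7: TTTCAGTTTC
Irgm1: GAAACCGAAA
Igtp: GAAACTGAAA

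In the 4 GBPs the element ran in reverse, and in the 2 IRGs it ran forward. Gbp3 and Irgm1 each held a further match that overlapped the one shown. A longer stretch is given for Gbp7 and Igtp, which hold both elements close to their start, with the matches in capitals, for chr3:142530238-142530327 and chr11:58199477-58199555 on the plus strand.

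Gbp7: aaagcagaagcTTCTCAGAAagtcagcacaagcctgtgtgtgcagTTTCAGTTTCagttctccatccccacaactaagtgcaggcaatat
Igtp: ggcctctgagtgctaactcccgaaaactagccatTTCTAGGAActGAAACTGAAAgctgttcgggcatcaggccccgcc

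In both, the GAS match lies upstream of the ISRE match, 2 bases from it in Igtp. These are matches of letters and not measured binding.

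Markers of other cell types were read as well, and some moved with the conditions. A marker sum does not show that the cell type was present. All 8 markers of the HSC and LSK gates were detected in every library, with Cd48, which HSCs were sorted to lack, at 16 to 42.7 FPKM in HSC libraries and 124 to 184 in LSK libraries. The summed FPKM of 11 neutrophil markers was 32.4 to 39.3 in HSCs alone and 88.5 to 299 with RBCs, and 188 to 285 in LSK cells alone and 447 to 654 with RBCs. That of 10 monocyte or macrophage markers, of which C1qa was at 0 throughout, was 402 to 433 and 327 to 328 in HSCs and 273 to 362 and 493 to 604 in LSK cells. The neutrophil sum was thus higher with RBCs in both populations, and the monocyte sum in LSK cells. S100a8 and S100a9 made up a large part of the neutrophil difference. In HSCs, S100a8 was 148 and 22.3 FPKM with RBCs against 5.7 and 2.32 alone, and S100a9 87.9 and 11.8 against 0.22 and 1.33. In LSK cells S100a8 was 303 and 204 against 79.1 and 114, and S100a9 156 and 89.6 against 30.5 and 63.5. Of the 11 markers, 10 in HSCs and 11 in LSK cells had a positive difference. Some ranges overlapped, as for Ngp in LSK cells (17.4 and 5.3 against 1.85 and 20.4). The monocyte sum is mostly Lyz2 and Cd68, and the monocyte marker Csf1r was called higher with RBCs in both populations, at 7.07 and 9.37 against 2.53 and 2.81 FPKM in HSCs and 47.2 and 54.3 against 14.1 and 22.8 in LSK cells. Ccr2 was called higher in LSK cells, at 34.4 and 35.0 against 7.61 and 4.57 FPKM. Red blood cell markers, 8 in the table and none at 0 in all libraries, summed to 282 to 338 in HSCs alone and 299 to 308 with RBCs, and to 111 to 177 and 119 to 184 in LSK cells. The hemoglobin genes differed in direction. Hba-a1 was 0.0826 and 1.40 FPKM in HSCs alone and 116 and 88.7 with RBCs, and 0.864 and 1.53 in LSK cells alone and 32.9 and 43.1 with RBCs. Hbb-b2 was 279 and 335 FPKM in HSCs alone and 120 and 158 with RBCs, and Hbb-b1 in LSK cells was 0.907 and 2.12 alone and 0.0438 and 0.0145 with RBCs. Dendritic cell markers summed to 100 to 115 in LSK libraries against 17.8 to 23.9 in HSC libraries. That sum was mostly Flt3, also a marker of the gates here (89.1 to 101 against 15.4 to 22.5 FPKM). Platelet markers summed to 92.7 to 106 in LSK cells with RBCs against 115 to 211 alone. In HSCs the platelet sum was 202 to 224 with RBCs against 199 to 240 alone. In LSK cells Pf4 was 13.5 and 19.1 FPKM with RBCs against 130 and 37.8 alone, while Itgb3 went the other way (16.9 and 19.7 against 13.7 and 12.6). B cell (35.0 to 55.7), T cell (10.7 to 16.4) and NK cell markers (0.937 to 7.60) were lower in sum. The B cell sum was mostly Cd79b (34.1 to 51.0 FPKM) and the T cell sum mostly Lck (10.1 to 15.4). In HSCs alone the neutrophil sum was mostly Csf3r (28.8 and 23.9). Any part of such cells in the GBP values was not tested. In bulk RNA a change in the share of a cell type and a change in RNA per cell cannot be told apart.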

How the data were processed

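RNA sequencing covered 8 libraries, 2 in each of 4 groups taken from the sample titles. The authors deposited 1 FPKM value per gene symbol and library, already scaled for transcript length and depth, with mm10 (GRCm38) as the build and TopHat2 2.1.1, Bowtie2 2.2.8, SAMtools 0.1.18 and Cuffdiff 2.2.1 in the submitters' processing notes. The annotation is not given in the sources used here.

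From the deposited FPKM, log2(FPKM + 1) was computed for the 12003 genes with at least 1 FPKM in at least 2 libraries. limma 3.58.1 (R 4.3.3) fitted the 4 group means with a mean-variance trend (4 degrees of freedom for the residuals, 5.18 for the prior). Differences on this scale understate changes of low genes. The smallest p that exact permutation of 2 and 2 libraries can give is 0.333 (two-sided), and the calls therefore depend on pooling the spread over genes. The fit was tested on simulated data. The members and all gene lists were chosen with earlier results of these data known.

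Genes named are all members, the other GBPs, IRGs and large interferon-induced GTPases, from each other list those called in any of the 5 contrasts or else the 2 of highest mean FPKM, and the 10 genes most like the members' average. From the marker lists, sums and a few members are given. Positions, and for each gene the transcript with the longest coding sequence, came from GENCODE M21. Depth was estimated from 2839 low values of 1681 genes with a single annotated transcript, in each library scaled by its relative depth. Coding identity was counted over the full length of global alignments, gaps included (Biopython 1.88). 95% intervals are those of the fit. In all, 20 alternatives were run: pseudocount, filters, scalings, samples, replicate block, trend, fold threshold, each library left out, and sums over clusters.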

Additional observations from a re-analysis of the deposited data

Results flagged for a closer look

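In 2 of the GBP and IRG genes tested, both libraries with RBCs lay beyond both libraries without RBCs in each population, but in opposite directions. Gbp7 was lower with RBCs in HSCs (23.8 and 24.6 against 25.1 and 27.5 FPKM) and higher in LSK cells (24.6 and 24.7 against 20.5 and 20.4 FPKM), a difference between the effects of 0.37 ± 0.12 on the log2 scale (interaction, adjusted p = 0.27 by limma, from the same values that the members were chosen by). Iigp1, which is not a member, was lower with RBCs in HSCs (11.5418 and 9.83 against 11.5434 and 14.5 FPKM, so that the nearest libraries were all but equal) and higher in LSK cells (6.61 and 5.90 against 5.42 and 3.74 FPKM), a difference of 0.65 ± 0.25 (adjusted p = 0.34 by limma). Neither passed the test of the difference over all genes.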

How the results depend on the processing

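The count of members called with RBCs stayed at 3 in HSCs and 3 to 4 in LSK cells in all alternatives run for it. The other 3 counts were 0 in the main analysis. Without a fold threshold, 2 members differed between the cell types without RBCs (Gbp7 and Igtp) and 2 with RBCs (Gbp8 and Igtp). Between LSK cells and HSCs with RBCs, 1 member (Gbp8) passed with a pseudocount of 0.1, with FPKM rescaled to the same sum, and, in an alternative chosen after seeing the data, with FPKM rescaled without red blood cell, neutrophil and monocyte markers. Leaving out each library in turn gave 0 to 1 there and 0 to 1 for the interaction, with Gbp8 passing without the second LSK library with RBCs and without the second library of LSK cells alone. A lone library was then assumed to vary like those of the other groups. With a replicate block the counts were 3 in HSCs, 4 in LSK cells and 0 in the other comparisons. Labels do not say that the numbers pair libraries, and deviations of same-numbered libraries correlated at -0.067 to 0.095, so they were not treated as pairs. Of the member values in the 5 comparisons, 870 kept their side of the threshold, with the same direction or a shift under the standard error. A further 12 that had not been called changed sign and shifted by at least that error, and 8 crossed the threshold, all Gbp8. The scalings moved the median of all genes by at most 0.0447. Of the members, Gbp5 rests on the fewest estimated fragments.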
